A study of Mus musculus with 6 samples.

Results

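The genes described here are 37 components of Nodal, TGF-beta and BMP signalling, measured by poly(A) RNA-seq in mouse induced pluripotent stem cells (iPSCs) with and without the microRNA gene miR-34a. They were chosen by name as pathway components, with earlier results of these data known but not by a threshold on their values. All 37 were found among the 41388 gene rows of the count table. Of these, 19 belong to the Nodal and TGF-beta branch, 12 to the BMP branch, and 6 serve both. The study sequenced 6 libraries, 3 from miR-34a-/- lines and 3 from wild-type lines, all on a C57BL/6 background. Fibroblasts of littermate embryos at E13.5 (embryonic day) were reprogrammed with pMX retroviruses carrying mouse Oct4, Sox2 and Klf4, and each line of either genotype was expanded from a picked colony. Every line of both genotypes therefore carries the 3 reprogramming transgenes, and all were grown on irradiated mouse embryonic fibroblast feeders, whose RNA can enter the libraries.

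Ligands of this family bind pairs of type II and type I serine-threonine kinase receptors, and the type I receptor then phosphorylates SMAD proteins. Nodal, activin and TGF-beta act through SMAD2 and SMAD3, BMPs through SMAD1 and SMAD5, and both kinds of SMAD enter the nucleus with SMAD4. In mouse pluripotent cells, Nodal induces its own inhibitors and is linked to the exit towards epiblast and primitive streak fates. BMP4 induces the Id genes, which are known for restraining differentiation of naive cells.

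The miR-34a precursor gene Mir34a had 1, 0 and 0 counts in the knockout and 2, 0 and 0 in the wild-type libraries, so these poly(A) libraries do not check the deletion. Total counts ranged from 8432597 to 29654855 per library, and levels are given in CPM (CPM being the usual depth-scaled read count, here with TMM factors between 0.988 and 1.011). The libraries carried the markers of pluripotent cells, and the summed level of 10 such genes was 8176 to 8794 CPM in knockout lines, against 7053 to 7229 CPM in wild-type lines, led by Dppa5a, Pou5f1 and Esrrb. The 10 include Pou5f1 (Oct4) and Sox2, towards which reads of the transgenes could count, and that part was not tested. Across the transcriptome, 50.5% of 14717 tested genes differed between genotypes (edgeR quasi-likelihood test, Benjamini-Hochberg adjusted p under 0.05), 26.5% being higher and 24.0% lower in the knockout. The labels call the lines independent but do not say which share an embryo, so p-values measure the spread among these libraries.

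Of the 36 members that passed the filter on low counts, 14 rose and 11 fell in the knockout, and 11 were not called. The share called was 69.4%, beside 50.5% of all genes tested, and the median absolute log2 fold change was 0.45, beside 0.27. Most differences were modest: 16 of the 25 called members differed by less than 1.5-fold, and 4 (Bmp7, Bmp2, Inhba and Tgfb2) by at least 2-fold, where 10.3% of all tested genes were called and reached 2-fold. The groups did not overlap in 26 of the 36 members, 15 with the knockout higher and 11 with the wild-type higher. Over all genes tested, 56.0% did not overlap, 29.2% with the knockout higher and 26.9% with the wild-type higher. No member lies on the X chromosome.

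In the Nodal and TGF-beta branch 6 of 19 members rose and 8 fell, with a median log2 fold change of -0.10, while in the BMP branch 6 of 12 rose and 2 fell, with a median of 0.37. Of all genes tested, 26.5% rose and 24.0% fell, with a median of 0.01. These are descriptions of 2 short lists, chosen and split with earlier results of these data known, and the difference between branches was not tested. The Nodal and TGF-beta median was -0.20 without wild-type replicate 3. The BMP median was 0.25 when genes under 1 CPM, Bmp2 among them, were left out. The called members that rose had a median transcript GC content of 54.1%, against 46.7% for those that fell. With the GC trend of each library removed, 12 members rose and 11 fell, and the branch medians were -0.05 and 0.21, with 49.2% of all genes called, 22.9% higher and 26.3% lower. Lefty1, Skil, Smurf1 and Smurf2 were then no longer called, and Ltbp1 and Smad1 were called lower.

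**Figure D1:**
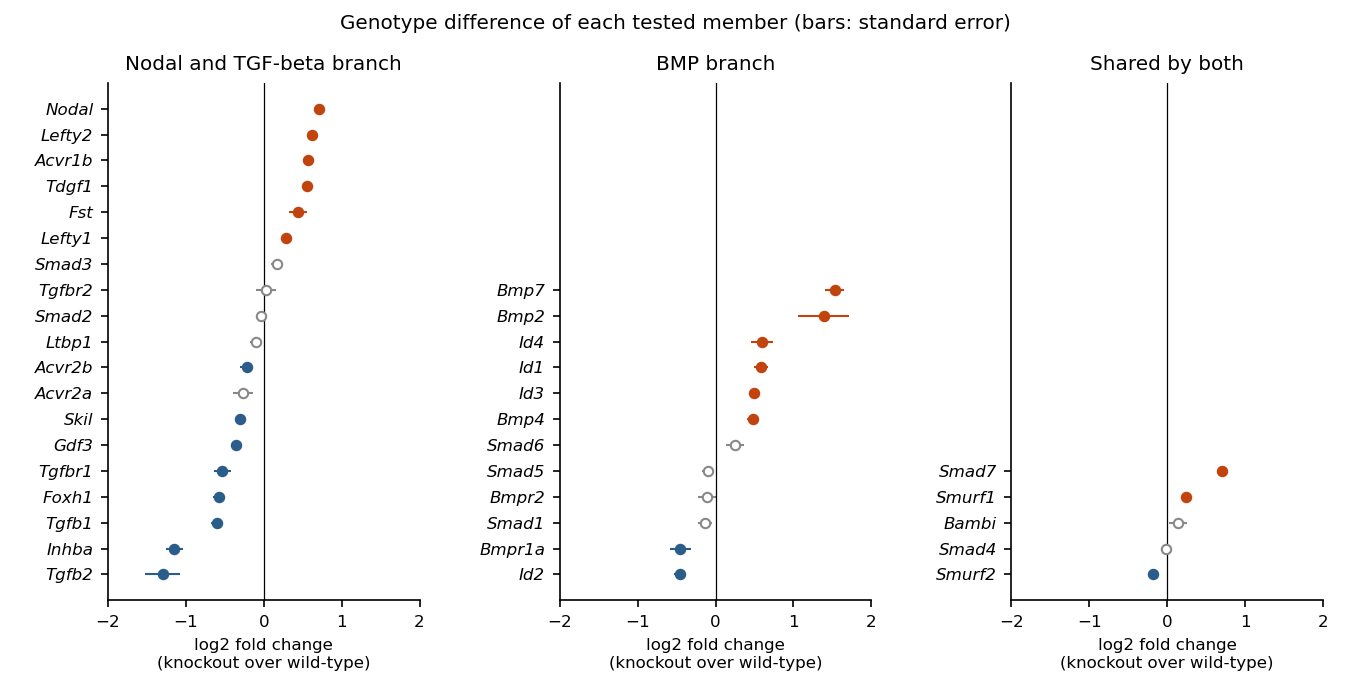
Log2 fold change (x axis, knockout over wild-type) of the 36 tested members by branch, with standard errors as bars; red points rose, blue points fell and open grey points were not called. The Nodal and TGF-beta panel runs from Nodal at 0.71 to Tgfb2 at -1.30, and the BMP panel from Bmp7 at 1.53 to Id2 at -0.46.

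The gene removed in the knockout encodes the following mature microRNA, shown because its seed (bases 2 to 8, in capitals) sets which transcripts it can pair with. The sequence is from RefSeq (GRCm38.p6, chr4:150068473-150068494, plus strand).
miR-34a-5p: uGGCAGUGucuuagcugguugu

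The 3′ untranslated regions of the members were searched for CACTGCCA (an 8-base match), and for CACTGCC or ACTGCCA alone (7-base matches), on the transcript strand. A match was found in 7 of 36 members (19.4%) and in 3074 of 13385 tested genes with an annotated 3′ untranslated region (23.0%). The members' regions were longer, with a median of 1805 bases against 1116. Of the 7, 3 rose (Smad7, Bmp7 and Smurf1), 2 fell (Bmpr1a and Tgfbr1) and 2 were not called (Bmpr2 and Acvr2a). Smad7 held the single 8-base match, which 5.91% of genes had. The median log2 fold change was 0.02 over genes with any match and 0.00 over genes without. The matches in the 4 called members other than Smad7 are shown with 11 bases on either side, the match in capitals, from GENCODE M21 transcripts on mm10. The Bmp7 match lies at chr2:172870047-172870075 (minus strand), the Smurf1 match at chr5:144877564-144877592 (minus strand), the Bmpr1a match at chr14:34412676-34412704 (minus strand), and the first of 2 in Tgfbr1 at chr4:47411032-47411060 (plus strand).
Bmp7: tctaagtctctCACTGCCcaccttggcga
Smurf1: gagactggacaCACTGCCtgttgcctttg
Bmpr1a: agcgctctagtCACTGCCttcccacgctg
Tgfbr1: ttttaaagacaACTGCCAgcccttaggga

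Such a match is a description of the letters and not a shown target site. Members with a match went both ways.

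Nodal itself, the ligand that signals through activin receptors in the early embryo, rose in the knockout. Nodal (ENSMUSG00000037171, chromosome 10, 61417972 to 61425338, mm10) was at 128, 125 and 125 CPM in knockout replicates 1 to 3 and at 78.0, 76.7 and 77.0 CPM in wild-type replicates 1 to 3. The 3 libraries of each genotype lay close together and the genotypes were well apart, a log2 fold change of 0.71 (SE 0.05, edgeR adjusted p = 2.0e-09), or 1.63-fold. Tdgf1, which encodes the Nodal coreceptor Cripto, was the member with the highest level. It was at 998, 1026 and 1077 CPM in knockout lines, against 675, 698 and 730.1 CPM in wild-type lines. All knockout libraries were higher (log2 fold change 0.56 ± 0.06 SE, adjusted p = 8.8e-08 by edgeR). A pseudogene, Tdgf1-ps1, shares sequence with it, and 87.5% of the 50-base stretches of the Tdgf1 transcript were unique among annotated transcripts.

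The other ligands of the branch fell, beside 24.0% of all genes called lower. Gdf3, a Nodal-related ligand of pluripotent cells, was at 136, 139 and 132 CPM in knockout lines, against 168, 173 and 182 CPM in wild-type lines, so that the groups did not overlap (log2 fold change -0.36 ± 0.05 SE, adjusted p = 1.5e-05 by edgeR). Inhba, which encodes the subunit of activin A, was at 12.8, 13.4 and 8.33 CPM against 26.7, 27.1 and 26.7 CPM. This was the second largest fall among the members, 2.21-fold, and knockout replicate 3 was the lowest library (log2 fold change -1.15 ± 0.11 SE, adjusted p = 1.8e-07 by edgeR). Tgfb1, a TGF-beta ligand, was at 16.6, 17.1 and 17.3 CPM against 24.6, 24.2 and 28.1 CPM (log2 fold change -0.60 ± 0.08 SE, adjusted p = 7.8e-06 by edgeR). Tgfb2, a second ligand of the same receptors, was near the low end at 1.42, 1.43 and 1.47 CPM against 2.95, 5.0 and 3.41 CPM (log2 fold change -1.30 ± 0.22 SE, adjusted p = 7.9e-05 by edgeR). Every wild-type library exceeded every knockout library for both genes, and wild-type replicate 2 held the highest Tgfb2 value. Ltbp1, which holds latent TGF-beta in the matrix, overlapped between genotypes at 28.3 ± 1.57 and 30.8 ± 3.53 CPM (SD, n = 3) and was not called (edgeR adjusted p = 0.32). It was called lower without wild-type replicate 3 (log2 fold change -0.20, adjusted p = 0.048 by edgeR) and with the GC trend removed (-0.21, edgeR adjusted p = 0.032).

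Most fibroblast markers were lower in the knockout, as were Inhba, Tgfb1 and Tgfb2. Of 14 tested fibroblast markers, 10 fell and 1 rose, beside 24.0% of all genes called lower and 26.5% higher. The summed level of all 15 was 419 to 503 CPM in knockout lines, against 669 to 908 CPM in wild-type lines, led by Col1a1, Col1a2 and Acta2. Col1a2 was not called, at 153 ± 18.9 CPM in knockout and 166 ± 31.4 CPM in wild-type lines (SD, n = 3; edgeR adjusted p = 0.68). Col6a1 and Loxl1 were not called either. Knockout replicate 3 was the lowest library in the marker sum and in Inhba, but not in Tgfb1 or Tgfb2. Among the wild-type libraries, replicate 3 had the lowest marker sum (669 CPM) but the highest Tgfb1 level (28.1 CPM). Wild-type replicate 2 had the highest marker sum (908 CPM) and also the highest Tgfb2 level. Inhba was nearly level in the wild-type, at 26.7 to 27.1 CPM. These orders describe 3 libraries per genotype and were not tested. Lum was at or near 0 in both genotypes, with 0 counts in the knockout and 0, 1 and 2 in the wild-type libraries, and was not tested. Dcn was at 0.490 to 0.962 CPM, against 1.31 to 2.12 CPM in the wild-type. The part of feeder or residual fibroblast RNA in the lower Inhba, Tgfb1 and Tgfb2 levels was not tested, and in bulk RNA fewer cells of a type cannot be told apart from less RNA per cell.

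Among the receptors, 1 rose, 2 fell and 2 were not called, beside 26.5% of all genes called higher and 24.0% lower. Acvr1b, the type I receptor that Nodal and activin use, was at 49.5, 50.5 and 46.4 CPM in knockout lines, against 32.7, 35.6 and 31.3 CPM in wild-type lines, with no overlap (log2 fold change 0.57 ± 0.07 SE, adjusted p = 1.2e-06 by edgeR). Tgfbr1, the TGF-beta type I receptor, was at 9.27, 10.4 and 10.4 CPM against 14.3, 12.1 and 16.2 CPM. It fell in the knockout (log2 fold change -0.53 ± 0.11 SE, adjusted p = 0.00065 by edgeR), opposite to Acvr1b. Tgfbr2, the type II partner of Tgfbr1, was at 6.88 ± 0.230 and 6.77 ± 0.961 CPM (SD, n = 3) and overlapped. The activin type II receptor Acvr2b was lower by 0.22 on the log2 scale (log2 fold change -0.22, adjusted p = 0.026 by edgeR). That call was lost without knockout replicate 3 (edgeR adjusted p = 0.06), without wild-type replicate 1 (0.13) or without wild-type replicate 2 (0.063). Acvr2a, the other activin type II receptor, was at 6.19 ± 0.472 and 7.48 ± 0.596 CPM (SD, n = 3) and missed the threshold (edgeR adjusted p = 0.087), though its groups did not overlap. It was called lower without wild-type replicate 3 (edgeR adjusted p = 0.046).

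The transducing SMADs of the branch were not called. Smad2 was at 47.4 ± 1.17 CPM in knockout lines, against 48.1 ± 2.77 CPM in wild-type lines (SD, n = 3), and Smad3 at 29.3 ± 1.11 and 26 ± 1.75 CPM (edgeR adjusted p = 0.77 and 0.071). The Smad3 groups did not overlap, the knockout libraries being higher at 28.6, 28.8 and 30.6 CPM against 27.1, 26.9 and 23.9 CPM. Foxh1, the forkhead partner that carries SMAD2 to Nodal target genes, fell. It was at 41.9, 41.2 and 46.1 CPM against 61.5, 61.1 and 68.1 CPM, with no overlap (log2 fold change -0.58 ± 0.07 SE, adjusted p = 8.7e-07 by edgeR). The ligand gene and the partner gene went in opposite directions.

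Secreted feedback inhibitors of Nodal rose with it. Lefty2, a Nodal antagonist induced by Nodal signalling, was at 258, 245 and 247 CPM in knockout lines, against 148, 160.3 and 181 CPM in wild-type lines (log2 fold change 0.62 ± 0.06 SE, adjusted p = 2.6e-07 by edgeR). Its neighbour and paralog Lefty1 was at 154, 144 and 165 CPM against 121, 123 and 134 CPM (log2 fold change 0.29 ± 0.06 SE, adjusted p = 0.00053 by edgeR). Neither gene overlapped between genotypes, and the Lefty1 difference was smaller. With the GC trend removed, Lefty2 kept a log2 fold change of 0.53, while Lefty1 had 0.12 and was not called (edgeR adjusted p = 0.13). The paralogs lie on chromosome 1 at 180893108 to 180899103 (Lefty2) and 180935022 to 180938400 (Lefty1) and share sequence, and 82.1% of the 50-base stretches of Lefty1 and 88.4% of those of Lefty2 were unique. Reads of shared stretches could be split between them. Summed over both genes, the level was 411, 389 and 412 CPM in the knockout against 269, 283 and 315 CPM in the wild-type libraries.

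Fst, the activin-binding protein follistatin, rose from 8.44 ± 1.16 to 11.3 ± 1.02 CPM (SD, n = 3; log2 fold change 0.44, adjusted p = 0.0055 by edgeR), and was not called without knockout replicate 2 (edgeR adjusted p = 0.053). Skil, which encodes the SMAD corepressor SnoN and is itself a TGF-beta target, fell from 76.8 ± 4.17 to 62.6 ± 3.72 CPM (log2 fold change -0.31, adjusted p = 0.0006 by edgeR). With the GC trend removed Skil was at -0.12 (edgeR adjusted p = 0.12). Among the 4 inhibitor genes of the branch, Skil alone is intracellular and was lower, while the 3 secreted ones were higher. Intracellular inhibitor genes of the shared class went both ways. Smad7 and Smurf1 rose (log2 fold changes 0.70 and 0.24) and Smurf2 fell (-0.18).

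**Figure D2:**
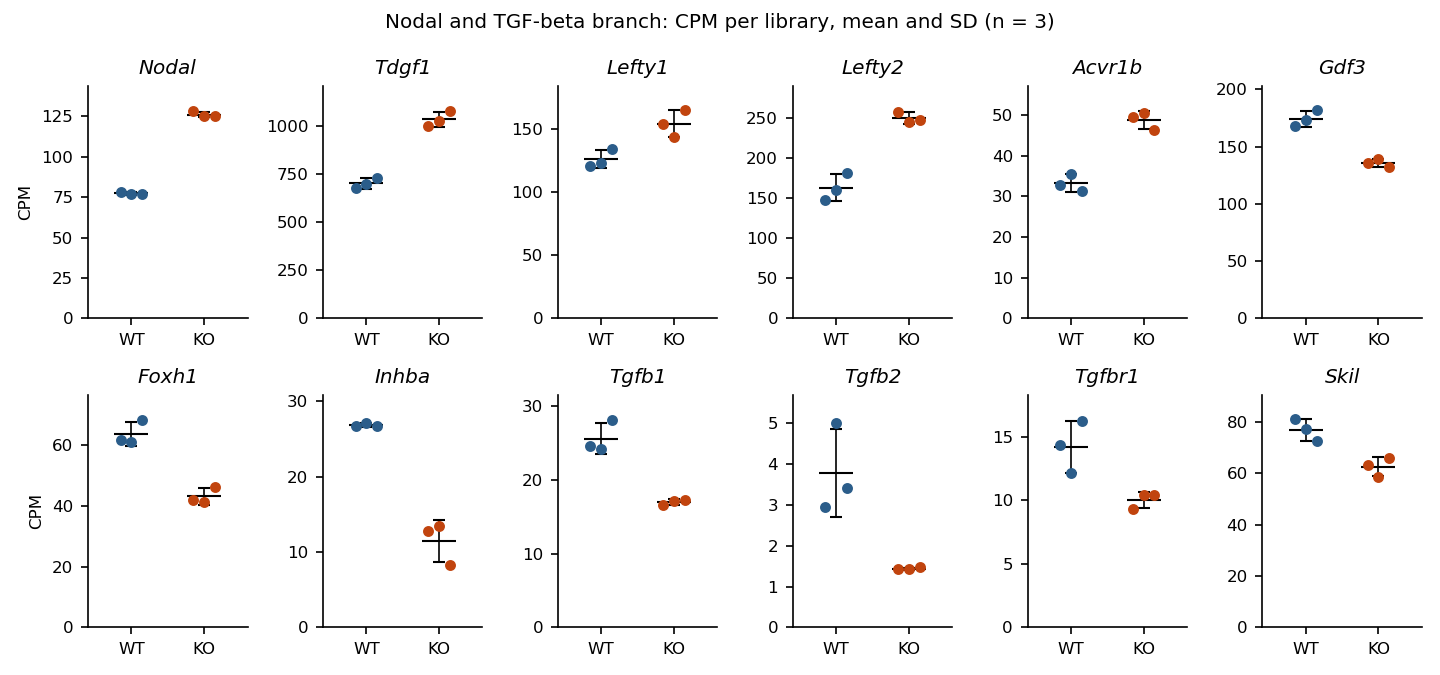
CPM of 12 members of the Nodal and TGF-beta branch in wild-type (WT, blue) and knockout (KO, red) libraries; points are libraries, the black line and bars are the mean and SD of 3 libraries, and the y axes start at 0. Nodal, Tdgf1, Lefty1, Lefty2 and Acvr1b are higher and the other 7 genes lower in the knockout, and none of the 12 overlaps between genotypes. Not plotted are Tgfbr2, Smad2 and Ltbp1, which overlap, and Acvr2a, Acvr2b, Smad3 and Fst, which do not. Over all genes tested, 56.0% did not overlap.

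Ratios within a library do not depend on how libraries are scaled, and they describe the balance of the members. The GC trend of each library was not removed from them, and Nodal and Inhba differ in transcript GC content (55.9% and 41.4%). Per kilobase of transcript, Nodal stood at 0.952, 0.911 and 0.959 of the Gdf3 level in knockout lines, against 0.470, 0.451 and 0.429 in wild-type lines. The ratio of Nodal to Foxh1 was 1.91 ± 0.121 against 0.794 ± 0.0498, and that of Nodal to Inhba 34.9 ± 9.51 against 8.77 ± 0.135 (SD, n = 3). The 2 Lefty genes together were at 3.26 ± 0.114 times the Nodal level in the knockout and 3.90 ± 0.320 times in the wild-type. Their sum thus rose less than Nodal. Lefty2 and Lefty1 had log2 fold changes of 0.62 and 0.29, against 0.71 for Nodal. With the GC trend removed, Lefty2 was close to Nodal (0.53 and 0.55) and Lefty1 was at 0.12. Lefty2 stood at 1.06 ± 0.0709 of the Lefty1 level in the knockout and at 0.847 ± 0.0435 in the wild-type. None of these ratios overlapped between genotypes. For the ratios of Nodal to Gdf3, Foxh1 and Inhba this was fixed beforehand and adds nothing to the single genes. Nodal was higher, and each of those genes lower, in every knockout library than in every wild-type library. With 3 libraries per genotype, an exact permutation test of a single ratio cannot go below p = 0.10.

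Ordered by wild-type CPM per kilobase, Tdgf1 stood first at 363, followed by Gdf3 (82.0), Lefty1 (77.7), Lefty2 (66.0), Foxh1 (46.6), Id3 (40.4) and Nodal (36.9). In the knockout the order after Tdgf1 (535) was Lefty2 (101), Lefty1 (95.3), Gdf3 (64.0) and Nodal (60.1). Bmp2 stood last of the tested members in the wild-type libraries at 0.137, after Tgfb2 at 0.740 and Tgfbr2 at 0.837 CPM per kilobase.

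**Figure D3:**
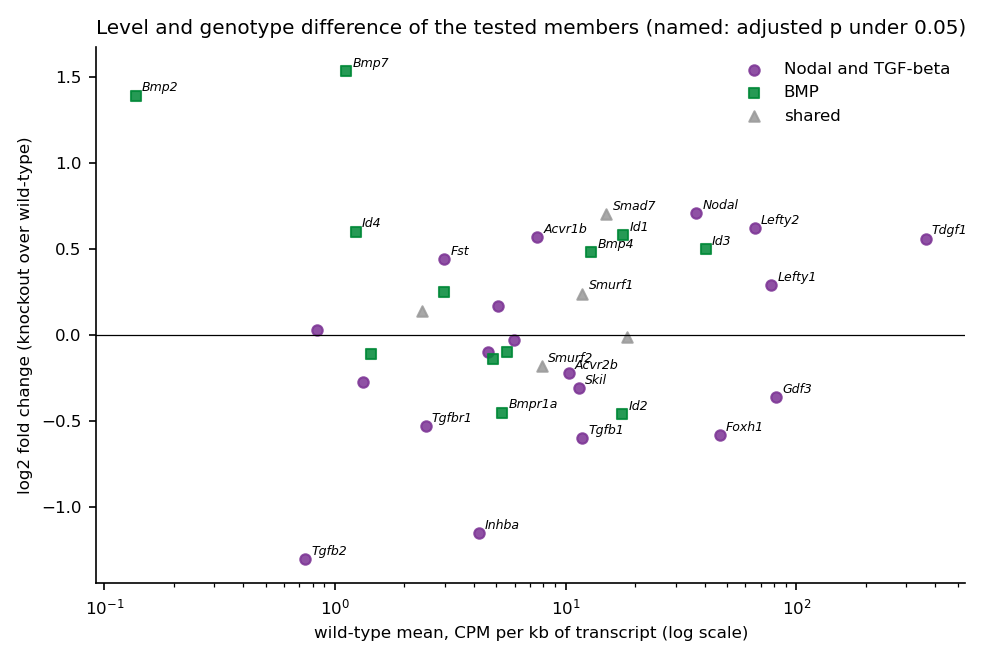
Log2 fold change (y axis, knockout over wild-type) of the 36 tested members against their wild-type mean in CPM per kilobase of transcript (x axis, log scale), by branch; called members are named. The core Nodal genes lie at the right, with Tdgf1 at 363, while the larger changes of Bmp2, Bmp7, Tgfb2 and Inhba lie at 4.20 or less.

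All 3 BMP ligands among the members rose, beside 26.5% of all genes called higher. Bmp4, the main BMP ligand of the early embryo and pluripotent cells, was at 38.9, 39.7 and 31.0 CPM in knockout lines, against 26.3, 25.7 and 27.7 CPM in wild-type lines (log2 fold change 0.48 ± 0.08 SE, adjusted p = 9.6e-05 by edgeR). The groups did not overlap, and knockout replicate 3 was closest to the wild-type. Bmp7, a ligand that can pair with BMP2 or BMP4, was at 11.2, 12.1 and 12.7 CPM against 4.14, 4.00 and 4.18 CPM. This 2.89-fold rise was the largest among the members (log2 fold change 1.53 ± 0.12 SE, adjusted p = 4.9e-09 by edgeR). Bmp2, a ligand close to BMP4, was low, at 0.962, 1.54 and 1.47 CPM against 0.574, 0.50 and 0.386 CPM, resting on 74 knockout and 24 wild-type counts (log2 fold change 1.39 ± 0.33 SE, adjusted p = 0.0017 by edgeR). It passed the filter of 0.564 CPM in all 3 knockout libraries but in only 1 wild-type library, so it could hardly have been called lower. Together the 3 ligands were at 49.9 ± 4.20 CPM in knockout lines, against 31.2 ± 1.05 CPM in wild-type lines (SD, n = 3). Per kilobase, Bmp4 was at 11.5 ± 0.243 times the Bmp7 level in wild-type lines and at 5.45 ± 0.987 times in the knockout.

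Most detected markers of primitive endoderm, a cell type known to express Bmp2, were higher in the knockout. Of 10 markers 6 were tested and all 6 rose, beside 26.5% of all genes called higher. Sox17 passed the filter through the knockout libraries alone (0.735 to 1.14 CPM, against 0.250 to 0.369 CPM), so it could hardly have been called lower. The summed level of the 10 was 29.5 to 31.5 CPM in knockout lines, against 10.7 to 14.2 CPM in wild-type lines, led by Dab2, Pdgfra and Gata4. Afp was at 0.0819 CPM or less in every library, and the other 2 visceral endoderm markers, Ttr and Apoa1, were at 0.203 CPM or less. Foxa2, which did not pass the filter either, went the other way without overlap, at 0.152 to 0.464 CPM in knockout and 0.492 to 0.837 CPM in wild-type lines. The part of such cells in the BMP ligand levels was not tested.

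Of the BMP receptor and SMAD genes, 1 receptor gene was called and it fell, beside 24.0% of all genes called lower. Bmpr1a, the type I receptor for BMP2 and BMP4, was at 20.8, 20.6 and 30.1 CPM in knockout lines, against 31.5, 34.2 and 28.7 CPM in wild-type lines. It passed the test as lower (log2 fold change -0.45 ± 0.13 SE, adjusted p = 0.015 by edgeR), but knockout replicate 3 lay within the wild-type range. The call was lost without knockout replicate 1, knockout replicate 2 or wild-type replicate 1 (edgeR adjusted p = 0.063 each). Bmpr2, the type II receptor, was not called at 17.4 ± 3.03 and 18.5 ± 1.92 CPM (SD, n = 3), and knockout replicate 3 was its highest library, at 20.9 CPM. Smad1 (16.9 ± 1.05 and 18.3 ± 1.33 CPM) and Smad5 (33.9 ± 2.36 and 36.7 ± 0.995 CPM), the BMP-responsive transducers, overlapped between genotypes and were not called. With the GC trend removed, Smad1 fell below the wild-type (log2 fold change -0.23, adjusted p = 0.039 by edgeR). Smad4, the partner of all receptor SMADs, was at 62.3 ± 2.10 and 62.6 ± 0.819 CPM (SD, n = 3), a log2 fold change of -0.01 with an SE of 0.06.

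Of the 4 Id genes, the best-known BMP targets, 3 rose and 1 fell, beside 26.5% of all genes called higher and 24.0% lower. Their products bind E proteins and block the DNA binding of helix-loop-helix factors. Id1 was at 32.7, 28.8 and 32.3 CPM in knockout lines, against 19.5, 19.4 and 23.2 CPM in wild-type lines (log2 fold change 0.58 ± 0.09 SE, adjusted p = 1.6e-05 by edgeR). Id3, the most abundant of the 4, was at 70.8, 75.5 and 71.6 CPM against 50, 55.1 and 49.7 CPM (log2 fold change 0.50 ± 0.06 SE, adjusted p = 2.0e-06 by edgeR). Neither gene overlapped between genotypes. Id4 rose from 4.73 ± 0.644 to 7.38 ± 0.750 CPM (SD, n = 3; log2 fold change 0.60, adjusted p = 0.0015 by edgeR). Id2 went the other way, at 24.9, 25.6 and 24.4 CPM in knockout lines, against 33.3, 35.6 and 34.8 CPM in wild-type lines (log2 fold change -0.46 ± 0.07 SE, adjusted p = 2.5e-05 by edgeR). Every wild-type library exceeded every knockout library for Id2. Per kilobase, Id3 was at 4.38, 4.53 and 4.53 times the Id2 level in knockout lines, against 2.32, 2.38 and 2.20 times in the wild-type libraries. The sum over the 4 genes was 136 ± 1.35 CPM in knockout lines, against 112 ± 3.60 CPM in wild-type lines.

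Of the inhibitory SMAD genes, Smad7 rose and Smad6 was not called. Smad7, the inhibitory SMAD that blocks both kinds of type I receptor and is induced by TGF-beta and BMP signalling, was at 104 CPM in each knockout library and at 59.9, 62.5 and 69.7 CPM in the wild-type libraries. The knockout libraries agreed to within an SD of 0.359 CPM and lay above all wild-type libraries (log2 fold change 0.70 ± 0.06 SE, adjusted p = 2.3e-08 by edgeR). Smad6, the inhibitory SMAD selective for BMP receptors, was at 10.2 ± 0.347 and 8.83 ± 1.08 CPM (SD, n = 3), and its highest wild-type library lay within the knockout range. It was not called (log2 fold change 0.25, adjusted p = 0.074 by edgeR), but was called higher without wild-type replicate 2 or with limma voom (adjusted p = 0.045 in both).

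The ubiquitin ligase genes Smurf1 and Smurf2, whose products degrade receptors and SMADs, went apart. Smurf1 rose from 64.1 ± 2.04 to 74.9 ± 5.04 CPM (SD, n = 3; log2 fold change 0.24, adjusted p = 0.0042 by edgeR), and had 0.08 with the GC trend removed (edgeR adjusted p = 0.26). Smurf2 was at 36.6 ± 3.00 against 41.6 ± 1.37 CPM (log2 fold change -0.18, adjusted p = 0.042 by edgeR). The Smurf2 call was lost without knockout replicate 1 (edgeR adjusted p = 0.26), wild-type replicate 2 (0.11) or wild-type replicate 3 (0.075), and with the GC trend removed (0.12). Bambi, a pseudoreceptor without a kinase domain, overlapped at 12.9 ± 0.764 and 12.1 ± 2.18 CPM and was not called. Cer1, a secreted antagonist of Nodal and BMPs made by anterior visceral endoderm, had 1 count in knockout replicate 1 and 0 in the other libraries. It was the 1 member that did not pass the filter, and 3 counts corresponded to 0.107 to 0.378 CPM depending on the library.

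**Figure D4:**
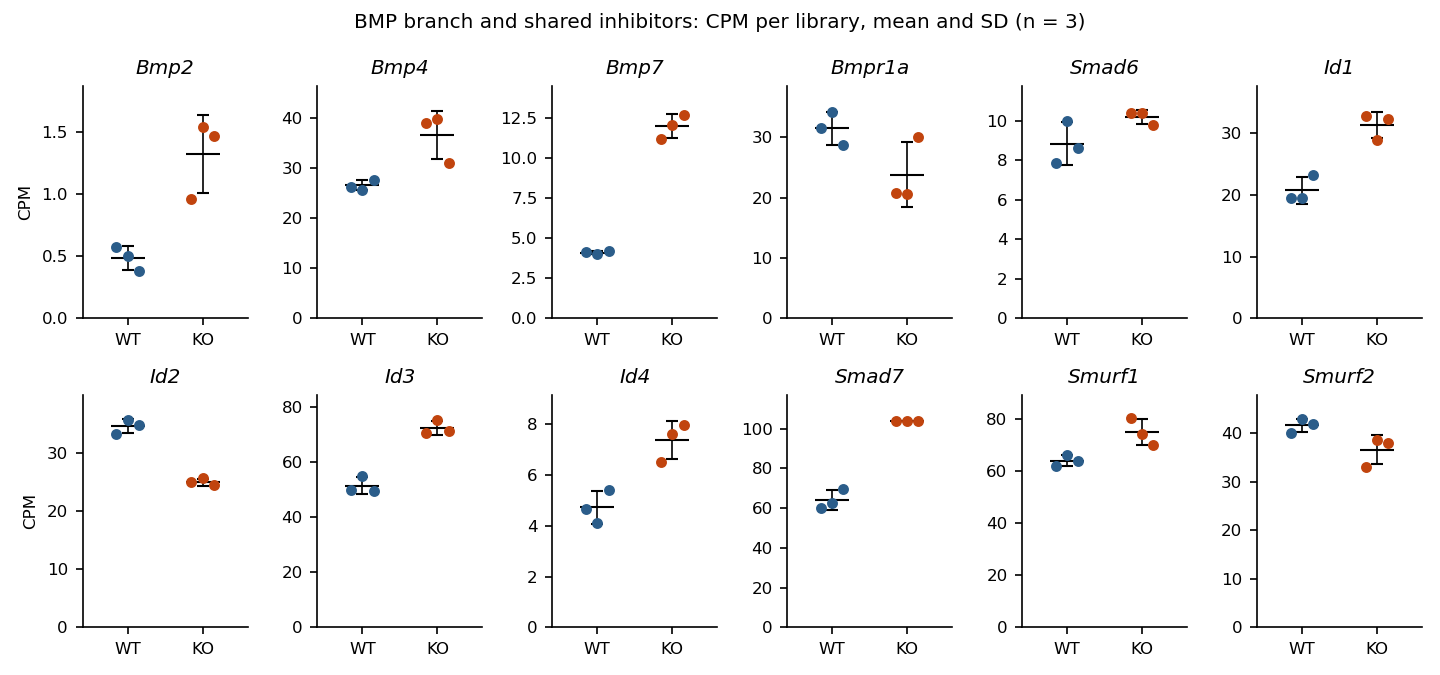
CPM of 12 members of the BMP branch and the shared inhibitors in wild-type (WT, blue) and knockout (KO, red) libraries; points are libraries, the black line and bars are the mean and SD of 3 libraries, and the y axes start at 0. Bmp7 sits near 4 CPM in the wild-type and between 11.2 and 12.7 CPM in the knockout libraries, Id2 is lower while Id1, Id3 and Id4 are higher, and Bmpr1a and Smad6 overlap.

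Promoter sequences from RefSeq (GRCm38.p6, 250 bases before to 50 after each gene's start) matched 24 of the 37 members. They were searched on both strands for GTCTAGAC (the palindrome bound by SMAD3 and SMAD4), GGCGCC and GGAGCC (GC-rich SMAD motifs), TGTNNATT (a FOXH1 motif) and the BMP response element known from Id1, which is GGCGCC followed after 5 bases by GTCT and so overlaps the GGCGCC search. The palindrome was found in 1 of 24 members, Smad6, and in 0.211% of 27025 promoters. The FOXH1 motif was found in 1 of 24 members, Tdgf1, and in 12.3% of all promoters. GGCGCC was found in 8 of 24 members (33.3%) and 12.0% of promoters, and GGAGCC in 16 of 24 (66.7%) and 30.5%. The members were not compared with promoters of like GC content. The BMP response element was in none of the 24 and in 0.0703% of promoters. Id1 was not among the 24, so its promoter, like those of Lefty1 and Lefty2, was not searched. The result says only that these letters are not in the windows of the 24 members. The promoters of Nodal, Tdgf1 and Smad6 are shown, Nodal and Tdgf1 because these members rose together, and Smad6 for the palindrome. Capitals mark GGAGCC in Nodal (on the minus strand of the gene), the FOXH1 motif, present 2 times, in Tdgf1 (also on the opposite strand), and GGAGCC and GTCTAGAC in Smad6. Nodal lies at chr10:61417722-61418021 (plus strand), Tdgf1 at chr9:110946109-110946408 (minus strand) and Smad6 at chr9:64022010-64022309 (minus strand).
Nodal: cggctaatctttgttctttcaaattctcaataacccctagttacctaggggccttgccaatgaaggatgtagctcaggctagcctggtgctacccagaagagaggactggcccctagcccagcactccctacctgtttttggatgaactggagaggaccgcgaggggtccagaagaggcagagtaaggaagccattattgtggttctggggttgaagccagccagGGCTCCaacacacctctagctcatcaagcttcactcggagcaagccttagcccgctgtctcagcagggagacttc
Tdgf1: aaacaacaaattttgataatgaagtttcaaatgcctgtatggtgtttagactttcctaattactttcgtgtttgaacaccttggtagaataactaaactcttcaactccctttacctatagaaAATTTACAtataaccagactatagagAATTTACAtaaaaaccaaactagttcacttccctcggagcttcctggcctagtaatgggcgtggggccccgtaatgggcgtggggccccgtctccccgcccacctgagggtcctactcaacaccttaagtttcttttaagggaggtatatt
Smad6: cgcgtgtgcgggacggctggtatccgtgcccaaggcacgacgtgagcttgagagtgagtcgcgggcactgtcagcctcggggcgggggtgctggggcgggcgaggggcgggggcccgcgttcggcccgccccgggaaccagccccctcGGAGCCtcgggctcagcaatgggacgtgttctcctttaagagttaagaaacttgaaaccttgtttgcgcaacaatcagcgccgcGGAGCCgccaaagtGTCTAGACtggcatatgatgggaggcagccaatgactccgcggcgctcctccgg

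Other genes of the pathway were taken from a list of 75, also chosen with earlier results of these data known. From that list, 74 matched the table and 59 were tested. Of the 59, 21 rose and 18 fell, a called share of 66.1% beside 50.5% of all genes tested (26.5% higher and 24.0% lower). In the Nodal and TGF-beta branch 10 of 27 rose and 10 fell, in the BMP branch 8 of 23 rose and 6 fell, and of 9 shared genes 3 rose and 2 fell. With the GC trend removed, 16 of the 59 rose and 24 fell, beside 22.9% of all genes called higher and 26.3% lower.

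In the Nodal and TGF-beta branch, both tested processing genes and both tested coreceptor genes were higher, beside 26.5% of all genes called higher. Pcsk6, a convertase that cleaves the Nodal precursor, rose from 93.0, 86.1 and 76.8 CPM in wild-type to 189.8, 169 and 165 CPM in knockout lines (log2 fold change 1.03, adjusted p = 3.3e-09 by edgeR). The coreceptor genes Eng and Tgfbr3 rose by 1.21 and 1.44 on the log2 scale, and Pmepa1, a SMAD inhibitor induced by TGF-beta, by 0.80. Of 6 tested target genes, 4 fell and 1 rose, beside 24.0% of all genes called lower and 26.5% higher. The mesoderm regulator T fell from 7.19 ± 1.68 to 1.31 ± 0.471 CPM (SD, n = 3). Tagln, a smooth muscle and fibroblast gene, had a log2 fold change of -1.81. Tagln moved in the direction of the fibroblast markers, and the part of such cells was not tested.

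In the BMP branch, the ligand genes Bmp8a and Gdf7 rose by 1.2 and 2.00 on the log2 scale from low levels, and no wild-type library of Gdf7 reached the filter of 0.564 CPM. Msx1, a homeobox target of BMPs, rose from 1.32 ± 0.138 to 2.83 ± 0.557 CPM. Dusp9, a phosphatase gene induced by BMP4 in mouse embryonic stem cells, rose from 156 ± 6.67 to 240.0 ± 13.0 CPM (log2 fold change 0.62, adjusted p = 2.2e-08 by edgeR). Rgma, a BMP coreceptor, and the tolloid proteases Bmp1 and Tll1, which cleave the antagonist chordin, had log2 fold changes of -0.90, -0.55 and -1.27.

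Among shared regulators, the deubiquitinase genes Usp9x and Usp15, both known to act on SMAD signalling, had log2 fold changes of 0.49 and -0.50. The ubiquitin ligase gene Nedd4l and the endosomal adaptor gene Hgs rose by 0.26 and 0.21, and the receptor-binding immunophilin gene Fkbp1a had -0.30. Hgs was not called without knockout replicate 1 (edgeR adjusted p = 0.068) or with the GC trend removed (0.60). Dusp9 and Usp9x are X-linked, and whether the lines differ in X chromosome number was not tested.

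**Figure D5:**
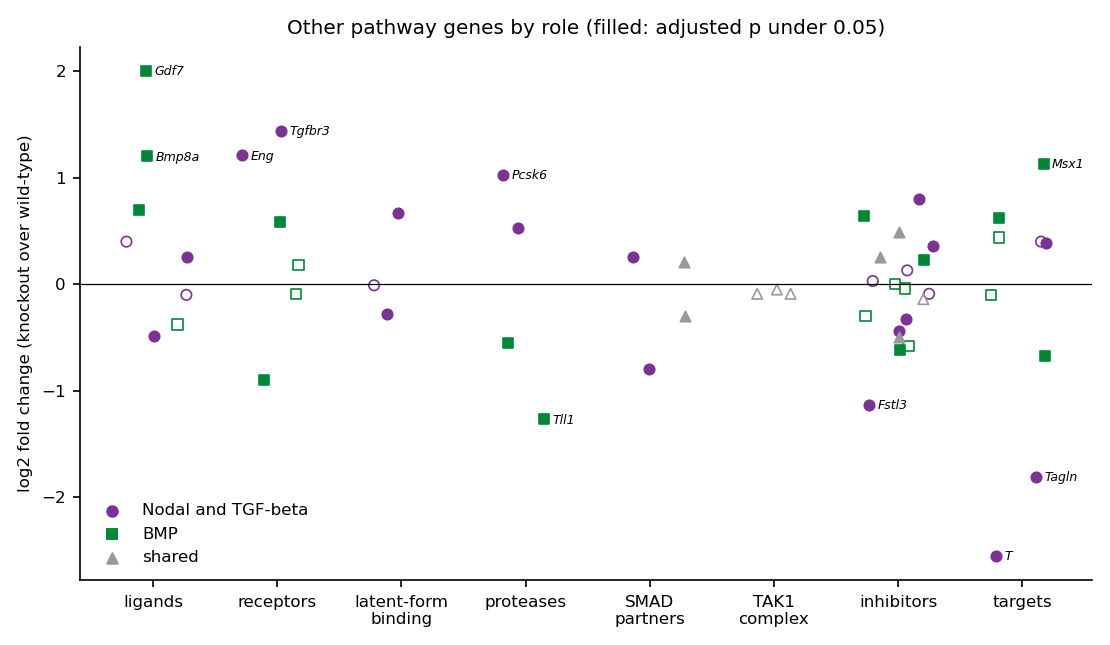
Log2 fold change (y axis, knockout over wild-type) of 56 tested other pathway genes by role (x axis), coloured by branch; filled symbols passed the adjusted p threshold, and genes beyond 1.0 in either direction are named. Among the genes plotted, T lies lowest at -2.55 and Gdf7 highest at 2.00.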

How the data were processed

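Poly(A) RNA-seq libraries of 3 miR-34a-/- and 3 wild-type iPSC lines were grouped by genotype and replicate number in the titles. The deposited table holds raw counts per gene and repeat family, and the authors used TopHat2 2.0.11, featureCounts 1.4.5 and mm10, per the submitters' processing notes. The labels' protocols describe the libraries as strand-specific, but for the counting neither a strand setting nor the treatment of multi-mapping reads is stated by the sources used here. Overlapping antisense genes shared 2.1% to 7.8% of the exon bases of Acvr2a, Bmp4, Bmpr1a, Fst, Id4 and Tgfb2, whose reads could be affected. A repeat-run table with 6 columns matching no label was not used.

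Of 41388 gene rows, 40254 received a symbol from GENCODE M21, and the 902 repeat families (5.40% to 6.16% of counts) were left out. Genes passing filterByExpr were tested with edgeR 4.0.16 (R 4.3.3; TMM, glmQLFit with robust = TRUE, glmQLFTest, two-sided, no covariate) and adjusted by Benjamini-Hochberg over 14717 genes. SE is the log2 fold change over the square root of F. CPM per kilobase uses the longest annotated coding transcript. The steps were tested on simulated data. No 2 libraries agreed within sampling noise (chi-square per degree of freedom 2.25 or more).

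Members and lists were chosen with earlier results of these data known, as was the branch of each member. All members are named. Of the other pathway genes, up to 4 called genes with the smallest p per branch and direction are named, except some that are not reported here, and of each marker list the 3 with the highest mean, other markers being named after their values were seen. A list of 5 primed epiblast genes gave 3 lower and none higher, led by Dnmt3b, Zic2 and Pou3f1, and the 10 pluripotency genes gave 7 higher and 1 lower, beside 26.5% of all genes tested called higher and 24.0% lower. Alternatives were DESeq2 size factors, library totals, DESeq2 1.42.0, limma 3.58.1 voom, 2 other count filters, robust = FALSE, a replicate block, GC trend removal (smoothing spline per library), both together, each library left out, and 2 other branch assignments.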

Additional observations from a re-analysis of the deposited data

How the results depend on the processing

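The counts of higher and lower members and of other pathway genes stayed within 1.5 times under every alternative run. With 1 library left out, the BMP branch had 1 to 2 lower genes, 1 without knockout replicate 1, knockout replicate 2 or wild-type replicate 1. The Nodal and TGF-beta branch median log2 fold change ranged from -0.20 to -0.06 over the same fits. The BMP median of 0.37 was 0.25 with at least 1 CPM required in 3 libraries, 0.21 with the GC trend removed, 0.21 with the replicate block and GC removal together, and 0.24 with the shared class added to both branches, where the Nodal and TGF-beta median was -0.02. Fewer or more genes enter the first and last of these, and for the others the cause was not tested.

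Sign changes were seen only in genes that were not called. With the GC trend removed, and with GC removal and the block together, Bmpr2 had log2 fold changes of 0.08 and 0.07, Smad2 0.08 and 0.08, Smad5 0.01 and 0.01, and Tgfbr2 0.00 and -0.03. Over the fits that leave out 1 library, the Smad2 log2 fold change ranged from -0.07 to 0.03, the Smad4 log2 fold change from -0.03 to 0.02 and the Tgfbr2 log2 fold change from -0.08 to 0.09. With DESeq2, Acvr2b and Smurf2 missed the threshold (adjusted p = 0.063 and 0.093).

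The labels mention pairs of lines but not what a replicate number shares. Deviations of same-numbered libraries correlated at 0.228, -0.01 and 0.215 over 10258 genes, and those of differently numbered libraries at -0.262 to 0.131. The values for replicates 1 and 3 lay above that range. The numbers were not taken as pairs in the main fit because the labels do not say what they share. The replicate block left 14 higher and 11 lower members and changed the call of none of the 57 genes examined one by one, and the number of all genes called was 7833 against 7433. Depth limits Bmp2 and Cer1 among the members.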
